A study of Mus musculus with 19 samples.

Results

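The annexins are described here in retinal microglia of mice with laser-induced choroidal neovascularization (CNV). The family members *Anxa1*, *Anxa2*, *Anxa3*, *Anxa4*, *Anxa5*, *Anxa6*, *Anxa7* and *Anxa11* were taken by gene symbol, and all 8 had a row among the 27299 genes of the expression table. Microglia were sorted from 6 samples on day 3 after argon laser treatment with 6 burns per eye (CNV d3) and from 6 samples of unlasered mice (control). All mice were 8 weeks old, and by the methods only the central retina, which holds the laser lesions, was used. The labels name the strain C57BL/6J in both groups, whereas the methods of the study name *Cx3cr1* GFP/+ mice, in which GFP replaces one copy of *Cx3cr1*, and then both groups would carry this allele. The sort took cells positive for CD11b and CX3CR1 and negative for Ly6C and Ly6G, with CD45 given as positive in the labels and as low in the methods. Nothing in these sources says that each sample came from separate animals, so the p-values measure the spread between these samples, which may be partly technical.

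Annexins are cytosolic proteins that bind negatively charged phospholipids, above all phosphatidylserine, when calcium rises. Their conserved core binds the membrane, while the variable N-terminus binds partners such as S100 proteins and sets the members apart. The family is known for roles in membrane repair, vesicle traffic, plasminogen activation at the cell surface and the resolution of inflammation.

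Expression of 3 of the 8 annexins rose on CNV d3 (*Anxa1*, *Anxa2* and *Anxa5*), 1 fell (*Anxa3*), and the other 4 (*Anxa4*, *Anxa6*, *Anxa7* and *Anxa11*) did not pass an adjusted p of 0.05 (limma on log2(normalized counts + 1), Benjamini-Hochberg over all genes). Over all genes tested, 8.29% were higher and 4.57% were lower by this test. These shares include genes with few or no reads, as only 15076 to 19116 genes had reads in a sample. The calls of *Anxa1* and *Anxa3* were each lost in 8 of the 12 fits that left out 1 sample. With the additional demand of an absolute log2 fold change (log2FC) above 1.5, as for a differentially expressed gene (DEG) in the study, 2 annexins (*Anxa1* and *Anxa2*) were higher, against 3.91% of all genes. None was lower by this rule, the lowest log2FC being -0.37. In 2 annexins (*Anxa2* and *Anxa5*) every CNV d3 sample lay above every control sample, which 4.64% of all genes showed, and in none did every CNV d3 sample lie below the controls, which 2.83% of all genes showed. The median log2FC was 0.69 over the 8 annexins, 0.146 over all genes and 0.064 over the 9713 genes with a mean of at least 100 normalized counts. The family was chosen with earlier results of these data known.

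The stretch upstream of the start is shown for the 3 annexins that rose and, for contrast, for *Anxa7*, whose log2 fold change was nearest to 0. Each is the 250 bases before the start in RefSeq (GRCm38.p6), written 5′ to 3′ on the strand of the gene. These starts differ from the gene coordinates given below, which are from another annotation. By those coordinates the *Anxa1* stretch lies within the gene, and the stretches of *Anxa2*, *Anxa5* and *Anxa7* overlap theirs in part. Capitals mark matches on either strand to the TATA box letters TATAAA, the GC box letters GGGCGG, the AP-1 letters TGANTCA and the PU.1 core letters GAGGAA, and none of these matches overlap in the stretches printed. PU.1 is the transcription factor that defines myeloid cells, and AP-1 is the Fos and Jun dimer.
*Anxa1* (chr19:20390672-20390921, minus strand): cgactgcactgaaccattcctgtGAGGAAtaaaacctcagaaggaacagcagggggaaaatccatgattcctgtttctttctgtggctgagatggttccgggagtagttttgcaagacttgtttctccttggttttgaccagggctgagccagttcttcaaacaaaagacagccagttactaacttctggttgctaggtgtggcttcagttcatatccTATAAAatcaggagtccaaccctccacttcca
*Anxa2* (chr9:69453433-69453682, plus strand): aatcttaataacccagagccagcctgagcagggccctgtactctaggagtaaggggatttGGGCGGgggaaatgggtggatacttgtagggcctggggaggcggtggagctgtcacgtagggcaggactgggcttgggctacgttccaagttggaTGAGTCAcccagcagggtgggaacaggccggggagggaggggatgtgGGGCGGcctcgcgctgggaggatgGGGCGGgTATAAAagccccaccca
*Anxa5* (chr3:36475888-36476137, minus strand): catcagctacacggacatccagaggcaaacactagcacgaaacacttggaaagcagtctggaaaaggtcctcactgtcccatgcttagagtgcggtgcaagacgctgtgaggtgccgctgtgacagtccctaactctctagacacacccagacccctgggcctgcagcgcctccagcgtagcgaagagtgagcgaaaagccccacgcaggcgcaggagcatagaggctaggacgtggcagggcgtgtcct
*Anxa7* (chr14:20479942-20480191, minus strand): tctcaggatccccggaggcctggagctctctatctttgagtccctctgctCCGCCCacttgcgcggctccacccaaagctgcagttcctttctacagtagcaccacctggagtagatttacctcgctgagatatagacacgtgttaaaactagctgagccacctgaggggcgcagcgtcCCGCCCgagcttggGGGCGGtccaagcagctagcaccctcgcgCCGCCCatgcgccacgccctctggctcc
The *Anxa1* stretch held a TATA box 32 bases and a PU.1 core 227 bases before the start. The *Anxa2* stretch held a TATA box at 17 bases, GC boxes at 24, 48 and 190 bases and an AP-1 match at 95 bases. The *Anxa5* stretch held none of the 4 motifs, and the *Anxa7* stretch held 4 GC boxes only. A second RefSeq stretch of *Anxa7*, not printed here, held 1 GC box. Among all 32851 stretches of this length in the table, 12.4% held the TATA box, 32.7% the GC box, 6.75% the AP-1 letters and 23.3% the PU.1 core. RefSeq stretches were found for 6 of the 8 annexins, 8 stretches in all, and the TATA box letters stood only in those of *Anxa1* and *Anxa2*. Of those not printed, the *Anxa11* stretch held 1 PU.1 core and 3 GC boxes. Both *Anxa4* stretches held none of the motifs, like that of *Anxa5*. A link between these letters and the changes on CNV d3 was not tested. These matches are letters in a window and say nothing of factor binding.

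*Anxa2* (chromosome 9, 69453620 to 69491795, plus strand, GRCm38) encodes the annexin that forms a complex with S100A10 and serves as a cell surface receptor for plasminogen and its activator. Control samples ranged from 290 to 553 normalized counts with a median of 381, and CNV d3 samples ranged from 1083 to 2567 with a median of 1948. All CNV d3 samples lay above all controls, with replicate 4 the lowest and replicate 6 the highest of the CNV d3 samples. The mean rose from 405 ± 98.8 to 1872 ± 555 (SD, n = 6 in each group), a log2FC of 2.18 ± 0.218 (SE, limma adjusted p = 2.5e-05). Ranked by mean level among all genes, *Anxa2* moved from position 6730 in the controls to 2174 on CNV d3. Exons of *Anxa2* share 2.63% of their length with *Gm16144* on the opposite strand, and the reads carry no strand information.

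*Anxa1* (chromosome 19, 20373428 to 20390944, minus strand) encodes the glucocorticoid-regulated annexin that limits leukocyte recruitment through formyl peptide receptors. Control replicates 4 and 5 had 0 reads, control replicate 6 had 1.99 normalized counts, and control replicates 1, 2 and 3 had 18.3, 44.5 and 89.0. In control replicates 4 and 5, a count of 0 allows up to 3 reads, worth 3.04 and 3.01 normalized counts. On CNV d3 the samples ranged from 59.8 to 348 normalized counts with a median of 123. The groups overlapped in 1 place, with control replicate 3 above CNV d3 replicate 1. The mean rose from 25.6 ± 35.5 to 156 ± 103 (SD, n = 6 in each group), a ratio of 6.1, with a log2FC of 4.10 ± 1.08 (SE, limma adjusted p = 0.0202). On recovered reads, edgeR gave a log2FC of 2.60 with an adjusted p of 0.0919, so the fold change was smaller and the call was lost. The limma call was also lost, with adjusted p-values of 0.055 to 0.0824, when any one of control replicates 4, 5 and 6 or CNV d3 replicates 2 to 6 was left out.

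*Anxa5* (chromosome 3, 36448923 to 36475894, minus strand) encodes the annexin whose labelled protein is used to stain phosphatidylserine on dying cells. Control samples ranged from 2073 to 2596 normalized counts with a median of 2302, and CNV d3 samples from 2623 to 3995 with a median of 3815. The groups did not overlap, although CNV d3 replicate 4 lay close to the highest control. The mean rose from 2302 ± 225 to 3591 ± 538 (SD, n = 6 in each group), a ratio of 1.56 and a log2FC of 0.63 ± 0.116 (SE, limma adjusted p = 0.00203). *Anxa5* thus passed the test with a smaller fold change than *Anxa2*, from a control mean that was higher and varied by 9.79% (coefficient of variation).

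*Anxa3* (chromosome 5, 96793339 to 96845966, plus strand) had the highest level of the family and was the annexin that fell. Control samples ranged from 12139 to 15986 normalized counts with a median of 14558, and CNV d3 samples from 9495 to 13719 with a median of 10567. The ranges overlapped, but none of the 6 CNV d3 samples reached the control median. The mean fell from 14242 ± 1552 to 11063 ± 1628 (SD, n = 6 in each group), a ratio of 0.777 and a log2FC of -0.37 ± 0.102 (SE, limma adjusted p = 0.0254). The limma call was lost, with adjusted p-values of 0.0523 to 0.0787, when any one of control replicates 1, 4, 5 and 6 or CNV d3 replicates 2, 4, 5 and 6 was left out. Exons of *Anxa3* share 3.07% of their length with *Gm42603* on the same strand.

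**Figure D1:**
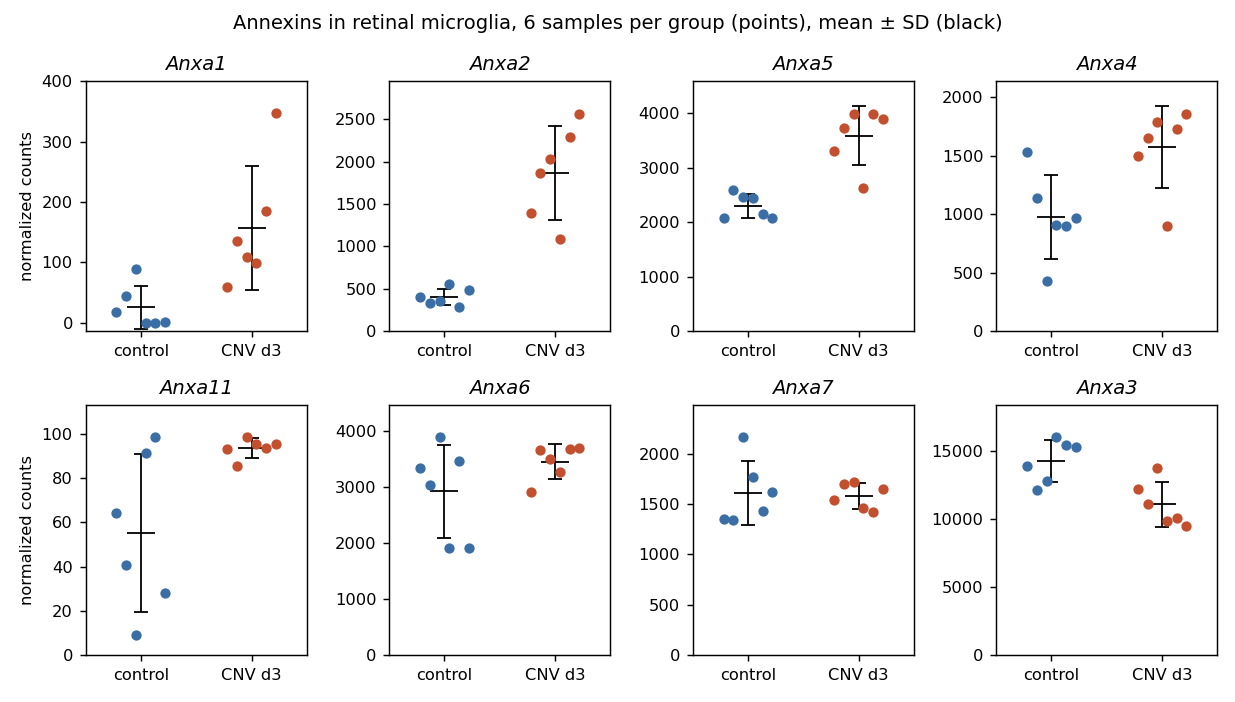
Normalized counts (vertical axes, one scale per gene) of the 8 annexins in the 6 control (blue) and 6 CNV d3 (red) samples, drawn from replicate 1 at the left to replicate 6 at the right, with the mean and SD in black. *Anxa2* and *Anxa5* show no overlap between the groups, the *Anxa1* controls include 2 samples at 0, and the *Anxa11* samples of CNV d3 lie between 85.3 and 98.4 while the controls spread from 9.01 to 98.4.

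*Anxa4* (chromosome 6, 86736840 to 86793584, minus strand), an annexin best known from epithelia, ranged from 426 to 1533 normalized counts in the controls and from 901 to 1862 on CNV d3. The groups overlapped and 5 of 6 CNV d3 samples were above the control median. The log2FC was 0.74, with a 95% confidence interval of 0.19 to 1.30 and a limma adjusted p of 0.0771. *Anxa4* passed with an adjusted p of 0.0494 when control replicate 1, its highest control, was left out.

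*Anxa11* (chromosome 14, 25842156 to 25886804, plus strand) encodes the annexin that links RNA granules to lysosomes and binds PDCD6 and S100A6. Its controls ranged from 9.01 to 98.4 normalized counts with a median of 52.5, and its CNV d3 samples from 85.3 to 98.4 with a median of 94.5. The CNV d3 samples were close together, with a coefficient of variation of 4.75% against 64.5% in the controls, and the controls reached both below and up to the CNV d3 range. At the 102 to 126 reads behind the CNV d3 values, counting error alone is larger than 4.75%. The closeness is therefore not read as a trait of the group. The log2FC was 1.10, with a 95% confidence interval of 0.003 to 2.21 and an adjusted p of 0.197 (limma), and the 8 to 126 reads behind each value limit its precision. Exons of *Anxa11* share 2.73% of their length with the antisense gene *Anxa11os*, whose reads cannot be told apart without strand.

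*Anxa6* (chromosome 11, 54979108 to 55033445, minus strand) encodes the large annexin with a duplicated core that acts in endosome and cholesterol traffic. It ranged from 1910 to 3892 normalized counts in the controls and from 2917 to 3695 on CNV d3, and the CNV d3 samples lay within the control range. The log2FC was 0.29, with a 95% confidence interval of -0.08 to 0.65 (limma adjusted p = 0.329). *Anxa7* (chromosome 14, 20455260 to 20480133, minus strand), also called synexin, a membrane fusion protein, ranged from 1343 to 2165 normalized counts in the controls and from 1419 to 1722 on CNV d3. Its log2FC was -0.01, with a 95% confidence interval of -0.28 to 0.26 (limma adjusted p = 0.959), which leaves room for a change of that size in either direction.

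Levels were also compared between the annexins, as normalized counts per kilobase of annotated exons. In the controls the order by mean was *Anxa3* (3909), *Anxa5* (1295), *Anxa6* (999), *Anxa7* (269), *Anxa4* (211), *Anxa2* (108), *Anxa11* (13.4) and *Anxa1* (8.80). The sample ranges of neighbours overlapped for *Anxa5* and *Anxa6*, *Anxa7* and *Anxa4*, *Anxa4* and *Anxa2*, and *Anxa11* and *Anxa1*. On CNV d3 the order was *Anxa3* (3037), *Anxa5* (2021), *Anxa6* (1180), *Anxa2* (502), *Anxa4* (339), *Anxa7* (264), *Anxa1* (53.7) and *Anxa11* (22.6). Overlap of neighbours remained for *Anxa2* and *Anxa4*, *Anxa4* and *Anxa7*, and *Anxa1* and *Anxa11*. *Anxa2* thus moved from position 6 to position 4 within the family, while *Anxa3*, *Anxa5* and *Anxa6* kept the first 3 positions.

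The summed level of the 8 annexins was 22550 ± 1129 (SD, n = 6) normalized counts in the controls and 23390 ± 2418 (SD, n = 6) on CNV d3, and the ranges of 20675 to 23751 and 19380 to 26955 overlapped. The share of *Anxa3* in the per kilobase sum was 51.6 to 63.2% in the controls and 34.4 to 46.4% on CNV d3, without overlap. The share of *Anxa2* was 1.59 ± 0.379% (SD, n = 6) in the controls and 6.69 ± 1.66% (SD, n = 6) on CNV d3, and that of *Anxa5* was 19.1 ± 2.26% (SD, n = 6) and 27.1 ± 2.02% (SD, n = 6). These shares are given as descriptions, since they sum to a whole and move with each other.

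**Figure D2:**
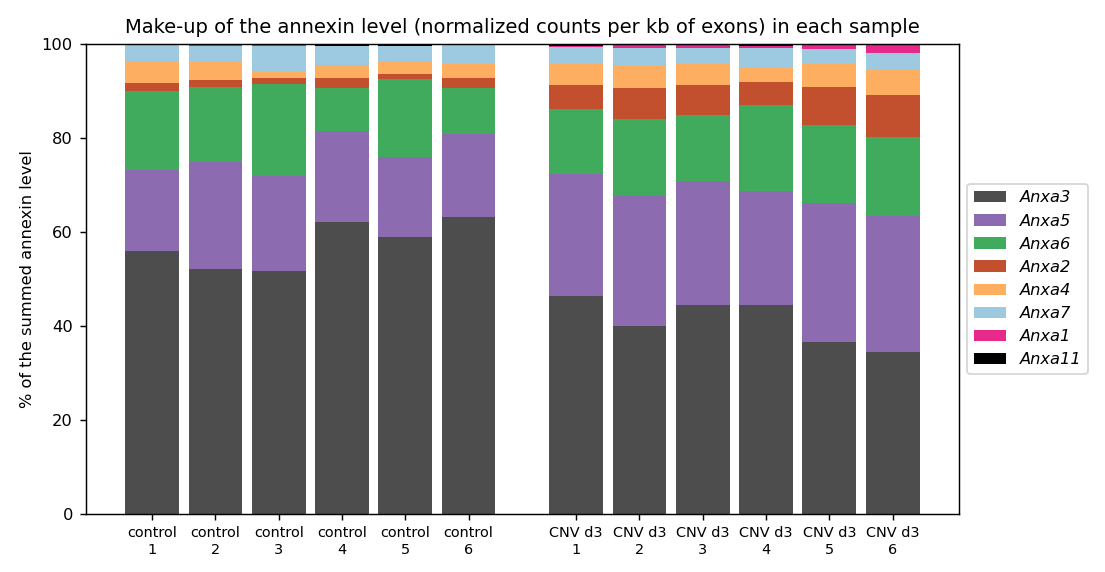
Share of each annexin (vertical axis, percent) in the summed annexin level, as normalized counts per kilobase of exons, with one stacked bar for each of the 6 control and 6 CNV d3 samples. *Anxa3* takes 51.6 to 63.2% of each control bar and 34.4 to 46.4% of each CNV d3 bar, where *Anxa5* and *Anxa2* take larger shares than in the controls.

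The CNV d3 samples differed among themselves in the same libraries for several annexins. Replicate 4 was the lowest of the 6 for *Anxa2*, *Anxa4* and *Anxa5*. Replicate 6 was the highest for *Anxa1*, *Anxa2*, *Anxa4* and *Anxa6* and the lowest for *Anxa3*. Replicate 3 was the highest for *Anxa3*, *Anxa7* and *Anxa11*.

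For the 4 annexins that passed the test, the genes with the most similar profile were those with the smallest mean absolute difference from it over the 12 samples, on the log2 scale relative to each gene's own control mean, among 9713 genes with a mean of at least 100 normalized counts. Nearest to *Anxa2* were *Hmgb2* (0.180), *AB124611* (0.278) and *H2ax* (0.286). *Hmgb2* encodes a chromatin protein and *H2ax* a histone variant. Nearest to *Anxa5* were *Atp5b* (0.096), *Eif3h* (0.108) and *Gltp* (0.109), of which *Atp5b* encodes a subunit of the mitochondrial ATP synthase. *Anxa3* was nearest to *Cpsf6* (0.076), *Calm2* (0.093) and *Cd9* (0.093), of which *Calm2* encodes calmodulin and *Cd9* a tetraspanin. *Anxa1* had no profile as near, with *Myh10* (0.848), *Cenpi* (0.848) and *Hpse* (0.852) the closest, and *Hpse* itself did not pass (limma adjusted p = 0.101). The *Anxa1* controls spread from 0 to 89.0 normalized counts, which widens any distance, and genes of lower mean were not compared. The distances thus cannot show whether *Anxa1* lacks similar genes.

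Of the known binding partners of annexins, 5 of 7 rose on CNV d3 and 2 did not pass the test, where 8.29% of all genes were higher. None fell by limma, at an unadjusted p under 0.05 or by DESeq2 on recovered reads (0 in each case). *Sri*, which encodes the calcium-binding protein sorcin that binds ANXA7, rose from a control mean of 2156 ± 275 to a CNV d3 mean of 3812 ± 416 normalized counts (SD, n = 6 each) (log2FC 0.83, limma adjusted p = 0.000221). *S100a11*, partner of ANXA1, rose from 31.5 ± 16.3 to 127 ± 75.5 (SD, n = 6 in each group), with a log2FC of 1.84 (limma adjusted p = 0.0288). *S100a6*, partner of ANXA11, rose from 21.9 ± 30.1 to 210 ± 173 (SD, n = 6 in each group), with a log2FC of 4.15 (limma adjusted p = 0.0137). *S100a4* and *Ahnak*, a scaffold of the ANXA2 complex, also rose, with log2FC of 3.52 and 4.83. Both belonged to the list of 7, which was chosen with earlier results of these data known. They were named in the text after their values were seen. Controls of *S100a6*, *S100a4* and *Ahnak* went down to 0 and up to 78.8, 31.5 and 3.38 normalized counts. The size of these 3 log2FC therefore depends on the added 1. The 2 that did not pass were *S100a10* (log2FC -0.32, 95% confidence interval -0.92 to 0.28, limma adjusted p = 0.537) and *Pdcd6* (log2FC 0.44, limma adjusted p = 0.0676). The count of 5 fell to 2 without CNV d3 replicate 3 and to 3 without CNV d3 replicate 2, 5 or 6. Over CNV d3 replicates 1 to 6, *Ahnak* had 6.65, 54.4, 126, 9.52, 83.3 and 298 normalized counts. *Ccr2*, 1 of 5 classical monocyte markers, had 120, 278, 1162, 163, 910 and 1351, which is the same order of samples. Of the other markers, *Plac8* and *Ly6c2* were highest in replicate 3, and *Chil3* and *Vcan* in replicate 6. *S100a6* and *S100a4* were both highest in replicate 3 (497 and 115) and lowest in replicate 4 (40.7 and 13.0). The summed classical monocyte markers were also highest in replicate 3 but lowest in replicate 1. The dendritic cell marker *Cd209a* had 0.739, 273, 379, 4.33, 167 and 510 over replicates 1 to 6, also highest in replicate 6 and lowest in replicate 1. The dendritic cell markers *Flt3*, *Zbtb46*, *Clec9a* and *Xcr1* were highest in replicate 3. The order of samples thus does not single out classical monocytes, and the part of monocytes and dendritic cells in the partner values was not tested.

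*S100a10* and *Anxa2*, which encode the 2 subunits of one complex, did not move by the same amount. *S100a10* ranged from 164 to 403 normalized counts in the controls and from 145 to 344 on CNV d3. The log2 ratio of *S100a10* to *Anxa2* was -0.77 ± 0.73 (SD, n = 6) in the controls and -3.27 ± 0.42 (SD, n = 6) on CNV d3, a difference of -2.50 with every CNV d3 sample below every control sample (two-sided exact permutation test, p = 0.00216, adjusted p = 0.00541 over 5 ratios). An exact p of 0.00216 is the smallest that 6 against 6 samples can give. The ratio of *Sri* to *Anxa7* went from 0.43 ± 0.28 to 1.26 ± 0.17 (SD, n = 6 in each group), with the same exact permutation p and without overlap. The ratios of *S100a11* to *Anxa1* (difference -2.26, adjusted p = 0.187), *S100a6* to *Anxa11* (3.05, adjusted p = 0.115) and *Pdcd6* to *Anxa11* (-0.67, adjusted p = 0.329) did not pass the exact permutation test. The controls of these 3 ratios spread widely, with SDs of 3.15, 3.33 and 1.44.

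**Figure D3:**
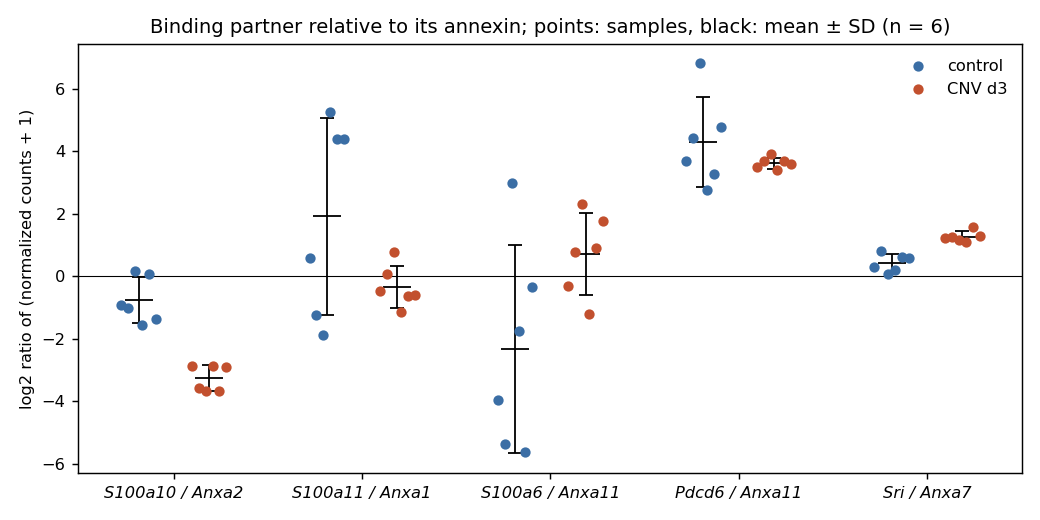
Log2 ratio of the normalized counts (+ 1) of a binding partner to its annexin (vertical axis) in the 6 control (blue) and 6 CNV d3 (red) samples, with the mean and SD in black. The *S100a10* to *Anxa2* ratio is lower on CNV d3 in every sample (difference -2.50) and the *Sri* to *Anxa7* ratio is higher in every sample (difference 0.84), while the other 3 ratios overlap.

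**Figure D4:**
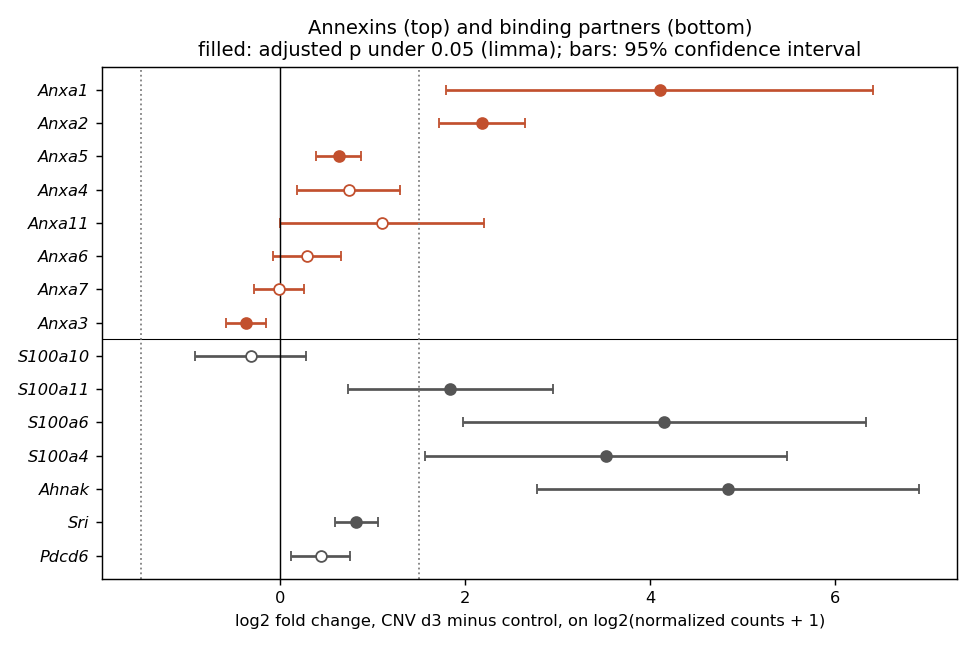
Log2 fold change of CNV d3 against control (horizontal axis, on log2(normalized counts + 1)) for the 8 annexins (red, top) and 7 binding partners (grey, bottom), with 95% confidence intervals. Filled points pass an adjusted p of 0.05 (limma) and dotted lines mark a log2FC of 1.5 in either direction. *Anxa2* has a narrow interval of 1.72 to 2.65 and *Anxa1* a wide one of 1.79 to 6.41.

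Of 5 measured genes of formyl peptide receptors and the glucocorticoid axis, which regulate or receive ANXA1, 1 rose, 1 fell and 3 did not pass. By the same limma test, 8.29% of all genes were higher and 4.57% lower. *Nr3c1*, which encodes the glucocorticoid receptor, fell from a control mean of 7665 ± 1409 to a CNV d3 mean of 4143 ± 464 normalized counts (SD, n = 6 each) (log2FC -0.87, limma adjusted p = 0.000338). *Fpr1*, a formyl peptide receptor gene, had 0 reads in all controls and a mean of 26.0 normalized counts on CNV d3, at least 4.36-fold higher than 3 reads in the shallowest control. Its adjusted p was 0.0415 (limma), 2 CNV d3 samples also had 0 reads, and the call was lost in 10 of the 12 fits that left out 1 sample, keeping it only without CNV d3 replicate 1 or 4. *Fpr2*, the gene of the main ANXA1 receptor, had 22.8 and 12.7 normalized counts in the controls and on CNV d3 (limma adjusted p = 0.925).

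For plasminogen activation at the cell surface, the setting of the ANXA2 complex, 2 of 6 measured genes rose, 1 fell and 3 did not pass. The shares over all genes were 8.29% higher and 4.57% lower. *Plgrkt*, a plasminogen receptor gene, rose from a control mean of 1034 ± 105 to a CNV d3 mean of 1610 ± 269 normalized counts (SD, n = 6 each) (log2FC 0.63, limma adjusted p = 0.00466). *Eno1*, a glycolytic enzyme gene whose product also binds plasminogen, rose with a log2FC of 0.95, and its reads may be split with a near-identical gene copy. *Serpine2*, an inhibitor of plasminogen activators and thrombin, fell from 30221 ± 2528 to 16688 ± 3483 (SD, n = 6 in each group), with a log2FC of -0.88 (limma adjusted p = 0.000213).

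The shares over all genes, 8.29% higher and 4.57% lower, also stand beside the next 3 lists, which were chosen with earlier results known. Among 9 genes that set phosphatidylserine exposure, 1 rose, 2 fell and 6 did not pass. *Atp8a1*, a flippase gene, rose (log2FC 0.49), while *Tmem30a*, a flippase subunit gene, and *Xkr8*, a scramblase gene, fell (log2FC -0.33 and -1.18). The 2 that fell became 1 in 6 of the 12 fits that left out 1 sample (without control replicate 4, 5 or 6, or CNV d3 replicate 2, 3 or 6). They became 3 without control replicate 2 and 3 with DESeq2 on recovered reads, but 1 with edgeR. Among 10 genes of phosphatidylserine recognition, 4 rose, 1 fell and 5 did not pass, against 6 that rose with edgeR and 6 with DESeq2 on recovered reads. *Axl*, a receptor tyrosine kinase gene, rose from a control mean of 10401 ± 2927 to a CNV d3 mean of 25974 ± 3755 normalized counts (SD, n = 6 each), *Gas6*, the gene of its ligand, rose with a log2FC of 0.64, and *Stab1* with a log2FC of 0.59. *Cd300lf*, likewise on a list chosen with earlier results known, rose with a log2FC of 3.01. It was named in the text after its value was seen. *Mertk*, a related receptor gene, fell with a log2FC of -0.50 (limma adjusted p = 0.0128), a call that was lost without control replicate 2 or CNV d3 replicate 2 or 6. Among 9 genes of membrane repair, 3 rose (*Chmp4b*, *Pdcd6ip* and *Capns1*, with log2FC of 1.54, 0.62 and 0.71), and 6 did not pass, against 5 that rose with DESeq2 on recovered reads. The number that fell was 0 by limma, at an unadjusted p under 0.05 and by DESeq2.

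Of the 4 further mouse annexins, *Anxa9* ranged from 0 to 111 normalized counts in the controls, where 4 samples were at 0, and from 21.4 to 77.3 on CNV d3 (limma adjusted p = 0.106). *Anxa10* had 1.00 normalized counts in 1 control and 0 in the other 11 samples. *Anxa8* and *Anxa13* were not analysed here.

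In all samples the microglia markers were high, and all 5 (*P2ry12*, *Tmem119*, *Sall1*, *Siglech* and *Cx3cr1*) fell on CNV d3, with sums of 424607 to 491944 normalized counts in the controls and 167467 to 274570 on CNV d3. In such sorted bulk samples fewer cells of a type and less RNA per cell cannot be told apart. Of 5 classical monocyte markers, 3 rose (*Ly6c2*, *Ccr2* and *Plac8*), where 8.29% of all genes were higher. This count lay between 2 and 4 when 1 sample was left out. The sum of the 5 was 35.1 to 293 in the controls and 375 to 2653 on CNV d3, with *Ly6c2* and *Chil3* at 0 in all controls. *Ly6c2* was near the floor, with 1.73 to 25.1 normalized counts on CNV d3 and a mean at least 2.17-fold higher than 3 reads in the shallowest control. The sum on CNV d3 was highest in replicates 3 and 6 (2653 and 2237) and lowest in replicates 1 and 4 (375 and 538), while *Anxa1* was lowest in replicate 1, *Anxa2* was lowest in replicate 4 and both were highest in replicate 6. In replicate 3, with the highest sum, *Anxa1* and *Anxa2* were at positions 3 and 4 from the lowest of the 6. By single markers, *Ccr2*, *Chil3* and *Vcan* were highest in replicate 6, and *Ly6c2* and *Plac8* in replicate 3. Dendritic cell markers rose in 3 of 5, with sums of 3.38 to 476 in the controls and 198 to 998 on CNV d3, and *Cd209a* was at 0 in all controls. The part of monocytes and dendritic cells in the annexin values was not tested. Neutrophil markers summed to at most 22.3 in any sample. Non-classical monocyte (0 of 5), natural killer cell (0 of 2), photoreceptor (0 of 5) and pigment epithelium (0 of 3) markers did not pass in either direction (limma). Photoreceptor marker sums were 682 to 6432 in the controls and 556 to 11957 on CNV d3, highest in replicates 4 and 6 (11957 and 9985). The part of photoreceptor RNA in the annexin values was not tested. At an unadjusted p under 0.05, 1 non-classical monocyte and 1 photoreceptor marker were higher, DESeq2 also called 1 of each list, and 0 of the neutrophil, natural killer cell and pigment epithelium markers differed by either. Among border macrophage markers 1 of 5 rose, among Müller glia and astrocyte markers 1 of 5 fell, and among endothelial markers 1 of 4 rose and 1 fell (limma). Each of these calls was lost in 7 to 10 of the 12 fits that left out 1 sample. By DESeq2, 0 border macrophage markers rose and 1 fell. Depth was 10963178 to 22335233 reads in the controls and 23532260 to 29523018 on CNV d3, and with all samples thinned to 10963178 reads the same 4 annexins passed.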

How the data were processed

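RNA of sorted retinal microglia was sequenced by the authors as single 50-base reads without strand information, from 12 samples that the labels list as 19 entries, because all control samples and CNV d3 replicate 4 are listed in 2 parts. The authors mapped reads with STAR (2.7.2b) to GRCm38.p6, counted reads per gene with featureCounts (1.6.4) and divided them by DESeq2 (1.22.2) size factors. The deposited signal of each sample is this normalized count. The authors' own group means, fold changes and adjusted p-values in the same table were not used.

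All 27299 genes were fitted with limma (3.58.1, R 4.3.3) on log2(normalized counts + 1) with a variance trend, 6 against 6 samples, with Benjamini-Hochberg adjustment over all genes. Fold changes are on this scale unless another tool is named, and for the low genes *Anxa1* and *Anxa11* they were larger than those of edgeR and DESeq2 on reads. Division by the value of 1 read gave whole reads for all values (tolerance 1e-06), and edgeR (4.0.16), DESeq2 (1.42.0) and voom were run on these reads as alternatives, beside pseudocounts of 0.5 and 5, a filter of 10 normalized counts in 6 samples, TMM scaling, no variance trend, thinning to 10963178 reads, a replicate block and leaving out each sample. Ratios were tested with two-sided exact permutation tests (SciPy 1.17.1). The scripts were tested on simulated data. Coordinates and exon lengths are from GENCODE M21 (GRCm38), which matched 27238 genes, whereas the authors used another release for the same genome. The members and lists were chosen with earlier results of these data known. All 8 annexins were named. From each list the genes past the threshold were named, at most the 3 of highest mean in each direction. The partners in the ratios, *Fpr1*, *Fpr2* and the 3 nearest profiles of each annexin past the threshold were added. Beyond this rule, *S100a4*, *Ahnak*, *Cd300lf* and cell type markers such as *Chil3* and *Vcan* were named. Of the marker lists, 2 genes are not reported here and 5 others were not analysed here, and their counts and sums leave these out. Floors of 3 reads cover counting error only.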

Additional observations from a re-analysis of the deposited data

Results flagged for a closer look

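In CNV d3 replicate 4, *Anxa4* had 901 normalized counts, far below the other 5 CNV d3 samples at 1503 to 1862, and the gap took up most of the group's range. *Anxa2* and *Anxa5* were also lowest in this replicate. Of 26 groups of values checked in this way, 1 stood out, and chance flags about 1 in 20.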

How the results depend on the processing

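*Anxa2* and *Anxa5* kept their call and direction in all 22 alternatives, with log2FC of 2.08 to 2.33 and 0.60 to 0.72. *Anxa1* kept its call in 9 of 10 processing alternatives and in 4 of 12 fits that left out 1 sample (log2FC 2.60 to 4.80, adjusted p 0.0103 to 0.0919), and *Anxa3* in 8 of 10 and 4 of 12 (adjusted p 0.00673 to 0.126). The number of annexins higher on CNV d3 lay between 2 and 4. The number lower was 0 without the variance trend and 0 with the replicate block, and 0 to 1 when 1 sample was left out. The number of DEG was 1 with edgeR and 1 to 2 when 1 sample was left out. *Anxa4* passed with the filter on low values (adjusted p = 0.0446), with DESeq2 (0.035) and without control replicate 1 (0.0494). With 1 sample left out, the *S100a6* to *Anxa11* difference lay between 2.39 and 4.11, and without control replicate 3 it was 4.11 (exact permutation p = 0.00866). The causes were not tested. Same-numbered samples did not deviate together (correlations -0.092 to 0.0853, and 1 of 6 controls correlated best with its own number), so no pairing by number was seen. Such low correlations cannot show that the samples were unpaired. With the replicate block, 3 annexins were higher, 0 lower and 2 DEG. Depth limits *Anxa1* and *Anxa11*, with 0 to 419 and 8 to 126 reads.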
